A study of Arabidopsis thaliana with 39 samples.

Results

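Messenger RNA levels of 39 genes for proteins of the cytosolic ribosome were compared between Arabidopsis thaliana wild type and mutants that include ld, which affects LUMINIDEPENDENS (LD), a homeodomain protein that works in the nucleus and in the autonomous pathway to flowering. The genes were taken by their identifiers and all 39 are listed in every table, among 28775 genes in each seedling table and 33562 genes in the apex table. They comprise 23 genes for large-subunit proteins, 4 of which encode the stalk proteins P0 and P1, 15 genes for small-subunit proteins, and RACK1A, a scaffold protein that sits on the small subunit. They fall into 23 families, of which 12 are represented by more than 1 gene and give 20 pairs of paralogs, and a further 184 genes of the same kind, listed here as other cytosolic ribosomal protein genes, serve as their surroundings. The 13 groups held 3 libraries each and all came from 7-day-old plants in 16 h of light per day. Whole seedlings were sequenced in 3 sets, each with its own wild type, Col0: set 1 had fld and ld beside it, set 2 had ld, pol2a and the double mutant ld pol2a, and set 3 had ld alone. Shoot apices, 30 per sample, formed a separate table with Col0 and the genotypes of set 2. Plants of the fld genotype lack FLD, which resembles histone demethylases and acts in the same pathway, and pol2a is mutated in POL2A, the catalytic part of DNA polymerase epsilon. No allele names are given in the sources. Seedling libraries carried a spike-in, RNA added from outside the plant, and the apex libraries did not.

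A ribosome needs its proteins in equal numbers, and in plants each protein is encoded by a small family of nearly identical genes. These genes are expressed most strongly in growing and dividing tissue, and their promoters are known for short shared elements, the site II element and the telo-box. The kinase TOR, which senses nutrients and energy, acts on ribosome production, and the small-subunit protein RPS6 lies downstream of it.

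Promoters were read from the TAIR10.1 reference as the 250 bases before each gene's annotated start. At least 1 site II element (TGGGCC or TGGGCT, on either strand, overlapping matches counted) stood in 28 of the 39 promoters, which is 71.8%, against 19.2% of 27437 protein-coding genes on chromosomes 1 to 5. The telo-box (AAACCCTA, on either strand) stood in 4 of the 39, or 10.3%, against 4.49% of the same 27437. Both motifs were in 2 promoters and neither in 9. The promoters of RPL10B with RPL10C and of RPSAA with RPSAb are shown as 2 of the 3 pairs of paralogs that parted in 3 comparisons each below, the most of any pair, the other being RPS6A with RPS6B. They lie at chr1:9321400-9321649 (plus strand), chr1:24838840-24839089 (plus strand), chr1:27244932-27245181 (minus strand) and chr3:1311130-1311379 (minus strand), each written 5′ to 3′ on the strand of its gene, with matches in capitals. RPL10B has 2 site II elements and RPL10C has 1, whereas RPSAA has 1 telo-box on the opposite strand and RPSAb has neither motif.
RPL10B: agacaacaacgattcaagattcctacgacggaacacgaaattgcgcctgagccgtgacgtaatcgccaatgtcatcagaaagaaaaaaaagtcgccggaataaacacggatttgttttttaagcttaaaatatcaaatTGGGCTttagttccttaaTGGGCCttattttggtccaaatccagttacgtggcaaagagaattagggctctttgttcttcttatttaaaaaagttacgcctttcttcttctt
RPL10C: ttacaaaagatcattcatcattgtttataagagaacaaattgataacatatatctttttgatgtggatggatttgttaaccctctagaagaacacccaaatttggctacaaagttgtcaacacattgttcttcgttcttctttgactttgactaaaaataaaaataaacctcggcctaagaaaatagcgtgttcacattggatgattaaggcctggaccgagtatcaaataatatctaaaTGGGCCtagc
RPSAA: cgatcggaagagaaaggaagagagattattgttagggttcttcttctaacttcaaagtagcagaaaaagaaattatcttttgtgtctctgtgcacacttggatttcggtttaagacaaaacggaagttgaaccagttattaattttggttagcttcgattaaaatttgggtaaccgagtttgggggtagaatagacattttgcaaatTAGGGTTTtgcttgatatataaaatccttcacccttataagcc
RPSAb: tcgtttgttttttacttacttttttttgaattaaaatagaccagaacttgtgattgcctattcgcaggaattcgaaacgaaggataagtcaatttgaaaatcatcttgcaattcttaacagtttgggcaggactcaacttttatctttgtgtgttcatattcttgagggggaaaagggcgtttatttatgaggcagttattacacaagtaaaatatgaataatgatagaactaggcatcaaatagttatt

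A motif match is a description of these letters. Over the 28 genes with a site II element the median log2 change in ld pol2a relative to all genes was 0.36 in set 2 and 0.42 in apices, and over the 11 without one it was 0.33 and 0.60.

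Depth, in units of 1e6 reads, ran from 10.4 to 37.8 over the seedling libraries and from 11.95 to 21.1 over the apex libraries. Replicates are called biological in the design text, with no more said of their source, so p-values measure only the spread between libraries, and that spread may be technical. Libraries 1 and 3 of fld in set 1 (chi-square per degree of freedom 0.944) and libraries 1 and 2 of Col0 in set 3 (0.605) differed from each other by less than sampling noise, and may not be separate samples. Tests kept n = 3, and the counts of members called with each such pair averaged and counted as 1 sample are given beside those comparisons. Ratios of paralogs were not averaged this way. In sets 1 and 2, 1 direction of the spread between replicates held 0.0084% and 0.0075% of it, against at least 17.3% and 7.69% in each other direction, so the values of these sets were not taken for raw reads and their p-values may be too small. FLD signal was 64.5 ± 7.8 in Col0 of set 1 and 10.5 ± 5.4 in fld (SD, n = 3). LD signal did not fall on the deposited scale in ld seedlings (64.6 ± 0.99 in Col0 and 367.5 ± 15 in ld of set 1). On a scale that removes the shift of most genes, its log2 change in ld was 1.26 in set 1, 0.23 in set 2 (limma adjusted p = 0.0547) and -0.26 (SE 0.054, limma adjusted p = 0.0025) in set 3, and in apices LD stood at 17.9 ± 3.3 CPM in Col0 and 8.34 ± 3.6 in ld. The mean of FLC, the floral repressor held down by this pathway, was higher than in Col0 in each fld, ld and ld pol2a group (85.4 ± 8.1 in Col0, 2795 ± 58 in fld and 1784 ± 43 in ld of set 1). Among marker genes, CLV1 was higher in Col0 apices (89.4 ± 6.0 RPM, reads per 1e6 reads) than in Col0 seedlings (25.5 to 50.1 by set) and KNAT1 was lower (5.26 ± 1.5 against 6.84 to 10.5), whereas the stem cell markers CLV3 and WUS were at or near 0 in both.

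Ribosomal protein genes were among the highest genes of every Col0 group, with a median level at the 96.5th to 98.1st percentile of the genes tested. Per kilobase of exon, RPL24B, a large-subunit protein known in this plant for restarting translation after short upstream reading frames, was highest in Col0 of set 1 at 547 ± 8.7 RPM per kilobase (SD, n = 3). The stalk-base gene AT3G09200, one of 3 members for protein P0, followed at 477 ± 11, and RPL10A, a large-subunit protein that joins late in subunit assembly, at 451 ± 8.0. Those means differed by more than their SDs. RPSAb, the minor gene for the small-subunit protein SA, was the lowest member in each of the 4 Col0 groups, at 6.96 ± 0.93 in set 1 and 3.16 ± 0.85 in apices on the same per-length scale.

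On the deposited scale, with no rescaling here, nearly every gene was higher in fld, in ld and in ld pol2a, and the ribosomal protein genes moved with the rest. In set 1 the median member rose 3.72-fold in fld where the median gene rose 3.15-fold, and 2.11-fold in ld where the median gene rose 2.34-fold. RPL24B, for example, gave a signal of 2959, 2855 and 2898 in Col0 and 10781, 9973 and 10448 in fld. All 3 fld libraries lay far above Col0. In ld the median member rose 1.52-fold in set 2 (median gene 1.47-fold) and 1.58-fold in set 3 (median gene 1.61-fold). In ld pol2a of set 2 it rose 3.54-fold (median gene 2.79-fold). By limma, 39 of 39 members were called higher in fld and 39 in ld of set 1, with 98.8% and 97.1% of all genes called higher. The counts were 38 in ld of set 2 (79.8% of all genes), 39 in ld of set 3 (94.4%) and 39 in ld pol2a (97.9%). In pol2a alone 15 were higher and 8 lower, against 34% and 25.2% of all genes. A share of members called on this scale that is about that of all genes says nothing particular about ribosomes, so each comparison below was read relative to the shift of all genes, after rescaling each library by its median ratio. In bulk tissue, fewer cells of a type and less RNA per cell cannot be told apart. Comparisons within a set share their Col0 libraries.

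**Figure D1:**
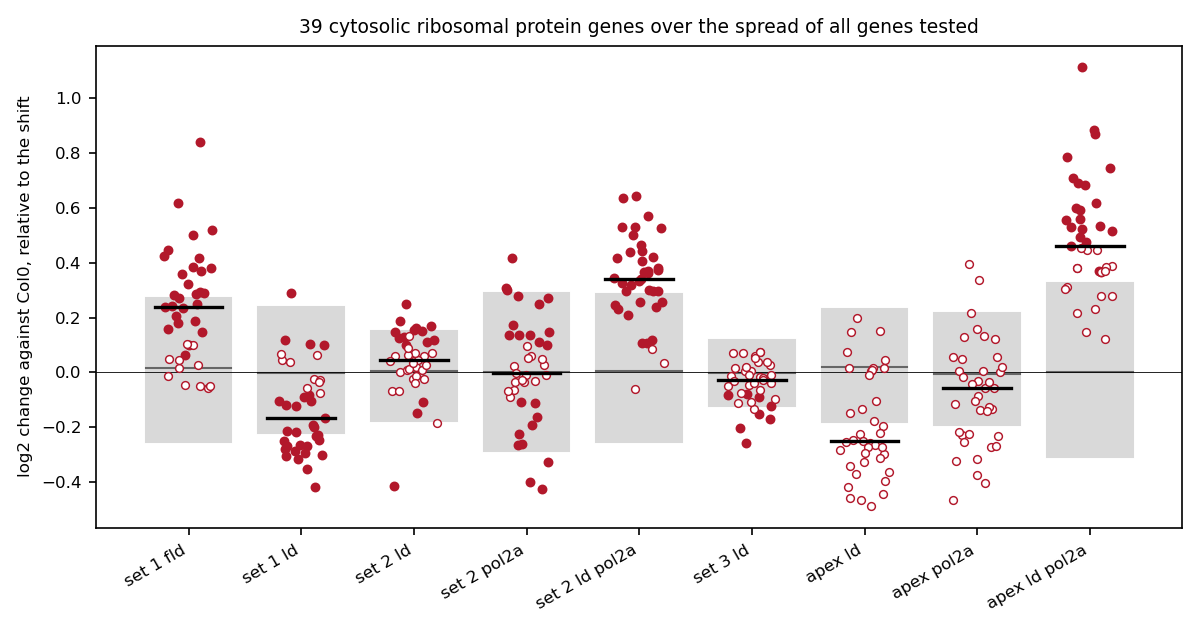
Log2 change against Col0 relative to the shift of all genes (vertical axis) for the 39 ribosomal protein genes (points, filled where the adjusted p is below 0.05) in the 9 comparisons. Grey boxes span the middle 50% of all genes tested with their median as a grey line, and black lines mark the members' median, which stands highest in ld pol2a of set 2 (0.34) and of apices (0.46).

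In fld seedlings most of the ribosomal protein genes rose above the shift. Of the 39, 28 were called higher and 0 lower relative to it, where 29.6% of all genes were called higher and 29.1% lower. Their median log2 change was 0.24, against 0.016 over all genes. The SD over the 39 genes was 0.20 against 0.49 over all genes tested, and 22 of them lay inside the middle 50% of all genes, with the other 17 above it. At an unadjusted limma p below 0.05, 1 member was lower, a count not taken over all genes. RPL23AA, a protein at the exit of the tunnel through which the new chain leaves, had a rescaled signal of 2510.4, 2662 and 2589 in Col0 and 4584, 4713 and 4613 in fld. The fld libraries lay above every Col0 library, and the log2 change was 0.84 (SE 0.027, limma adjusted p = 4.49e-16). RPS6A, the small-subunit protein phosphorylated downstream of TOR, stood at 3073, 3211 and 2897 in Col0 and 4669.6, 4826 and 4575 in fld, again with no overlap, a change of 0.62 (SE 0.033, limma adjusted p = 1.28e-12). RPS5A, known from dividing cells of the embryo and meristem, stood at 2432, 2513 and 2344 in Col0 and 3580.2, 3487 and 3368 in fld and changed by 0.52 (SE 0.033, limma adjusted p = 2.43e-11). The lower end of the list showed no call. The major P0 gene AT3G09200 stood at 8544, 8406 and 8052 in Col0 and 8181, 7906 and 7958 in fld, with overlapping groups and a difference of -0.056 (SE 0.026, limma adjusted p = 0.0747). The RPS3 gene AT2G31610 (-0.049) and the RPS2 gene AT2G41840 (-0.048), both for proteins near the mRNA entry of the small subunit, also did not pass the test. Large-subunit genes were called higher in 18 of 23 cases and small-subunit genes in 10 of 15. With fld libraries 1 and 3 averaged and counted as 1 sample, 27 members were called higher. Of all genes, 10189 were then called either way, against 11201 with n = 3. The summed level of 9 markers of dividing cells moved the same way, from 88.5 to 99.5 RPM in Col0 to 138 to 142 in fld. The sum of root markers moved the other way, from 4394 to 4460 RPM in Col0 to 3105 to 3226 in fld. PYK10, a root-body gene, made up nearly all of this sum (4395 ± 33 RPM in Col0). Relative to the shift, 3 of the 7 root markers were called higher and 1 lower. Their part in the result was not tested.

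In ld of the same set most members fell below the shift. Of the 39, 26 were called lower and 4 higher, against 27.5% and 25.6% of all genes, and the median log2 change was -0.17. The SD over the 39 genes was 0.16 against 0.45 over all genes tested, and 23 of them lay inside the middle 50% of all genes. Scaled by library totals instead, the split was 15 lower and 9 higher, with 10752 of 19069 genes called either way. These values are relative: on the deposited scale all 39 were higher in ld than in Col0. AT2G31610, for RPS3, had a rescaled signal of 3804, 3961 and 3617 in Col0 and 2877, 2818 and 2830.5 in ld, and its ld libraries were all below Col0, a change of -0.42 (SE 0.030, limma adjusted p = 2.67e-10). RACK1A stood at 6106, 6181 and 5968 in Col0 and 4766, 4787 and 4757 in ld, also without overlap, a change of -0.35 (SE 0.024, limma adjusted p = 8.54e-11). RPL10A stood at 6946, 6922 and 6620.4 in Col0 and 5410.4, 5529.9 and 5537 in ld and changed by -0.31 (SE 0.026, limma adjusted p = 1.75e-09). RPL23AA went the other way, as it did in fld, with 2510.4, 2662 and 2589 in Col0 and 3190.1, 3135 and 3154 in ld and a change of 0.29 (SE 0.027, limma adjusted p = 1.9e-08). RPS5A changed by 0.12 (SE 0.033, limma adjusted p = 0.00472) and RPL5A, which carries the 5S ribosomal RNA into the large subunit, by 0.11 (SE 0.027, limma adjusted p = 0.00247). The same dividing-cell markers stood at 141 to 148 RPM in ld, above Col0 as in fld, while the members were mostly lower. Summed root markers (3068 to 3141 RPM against 4394 to 4460 in Col0) and leaf photosynthesis markers (35748 to 36688 against 37303 to 38745) were below Col0, as most members were. The root sum is nearly all PYK10. Relative to the shift, 2 of 7 root markers were called higher and 2 lower, and 1 of 6 leaf markers higher and 4 lower. Their part in the result was not tested.

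In ld of set 2 the members stayed close to all genes, with 12 called higher and 3 lower, against 18.6% and 15.9%. Their median was 0.044, and 31 of the 39 lay inside the middle 50% of all genes. The SD over the 39 genes was 0.12 against 0.37 over all genes tested. Scaled by library totals, which puts the median of all genes at -0.11, 1 member was called higher and 12 lower. Of 19444 genes tested, 7759 were then called either way. AT3G53870, a paralog of AT2G31610 for RPS3, had a rescaled signal of 4063, 4017 and 4077 in Col0 and 4891, 4687 and 4879.8 in ld, with every ld library above Col0 and a change of 0.25 (SE 0.033, limma adjusted p = 5.36e-06). RPL3A, a core protein near the peptidyl transferase centre, changed by 0.19 (SE 0.033, limma adjusted p = 0.00016) and RPL10A by 0.17 (SE 0.041, limma adjusted p = 0.00303), and neither was called under scaling by library totals (0.067 and 0.050). RPSAb had the largest change of the 39, with a rescaled signal of 158, 148 and 137 in Col0 and 113, 99.1 and 121 in ld, a change of -0.41 (SE 0.11, limma adjusted p = 0.00646). Its deposited values overlapped between the groups, which was so for no other member. RPS13A changed by -0.15 (SE 0.045, limma adjusted p = 0.0147), a call that ended without Col0 library 3 (limma adjusted p = 0.0605) or ld library 1 (0.107). RPL10B changed by -0.19 (SE 0.075, limma adjusted p = 0.0614), which did not pass the test. Summed leaf photosynthesis markers stood at 34639 to 35395 RPM in ld against 25483 to 26720 in Col0. Summed root markers, nearly all PYK10 in Col0, stood at 4675 to 4981 against 4445 to 4591. Relative to the shift, 6 of 6 leaf markers were called higher, and 1 of 5 root markers higher and 1 lower. The part of these markers in the result was not tested.

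Set 3 gave the smallest spread. In its ld libraries 0 members were called higher and 8 lower, against 19.2% and 19.3% of all genes, and the median was -0.028. At an unadjusted limma p below 0.05, 2 were higher and 11 lower, a count not taken over all genes. The SD over the 39 genes was 0.080 against 0.32 over all genes tested, and all 39 lay within 0.3 of the median of all genes. Scaled by library totals, 2 were called higher and 11 lower, with 7884 of 20998 genes called either way. RPS18C, one of 3 genes for the small-subunit head protein S18, had a rescaled signal of 7793, 7867 and 7061 in Col0 and 6664, 6109 and 6244 in ld. All ld libraries were below Col0, a change of -0.26 (SE 0.043, limma adjusted p = 0.000553). RPL16A, one of the genes for the large-subunit protein L11, changed by -0.20 (SE 0.047, limma adjusted p = 0.00461), and PGY2, an L9 gene known from a leaf shape mutant, by -0.17 (SE 0.041, limma adjusted p = 0.00596). The largest positive values, of EMB2296 (0.074), AT3G09630 (0.074) and AT5G02870 (0.073), did not pass the test. With Col0 libraries 1 and 2 averaged and counted as 1 sample, 5 members were called lower. Of all genes, 6216 were then called either way, against 8079 with n = 3. Summed root markers, nearly all PYK10 in Col0, stood at 3207 to 3396 RPM in ld and 2798 to 2905 in Col0. Of the 7 root markers 3 were called higher and 1 lower, and their part in the result was not tested.

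RPS18C was the 1 member of 39 called lower in ld of all 3 seedling sets, with relative log2 changes of -0.25 in set 1, -0.11 in set 2 and -0.26 in set 3, and no member was called higher in all 3. Of all genes tested in these sets, 2.25% were called lower in all 3 and 2.19% higher in all 3. The ld groups of these sets share no library. A group of 10 members, among them RPL3A, RPL10A, AT3G53870 and the major P0 gene AT3G09200, was called lower in set 1 and higher in set 2, which held for 7.11% of all genes tested in both. RPL10A, for example, changed by -0.31, 0.17 and -0.023 in sets 1, 2 and 3. Dividing-cell markers also differed between the sets: ld stood above Col0 in set 1, but at 70.1 to 72.7 RPM against 82.3 to 85 in Col0 of set 2 and at 165 to 173 against 166 to 172 in set 3. Their part in the result was not tested.

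**Figure D2:**
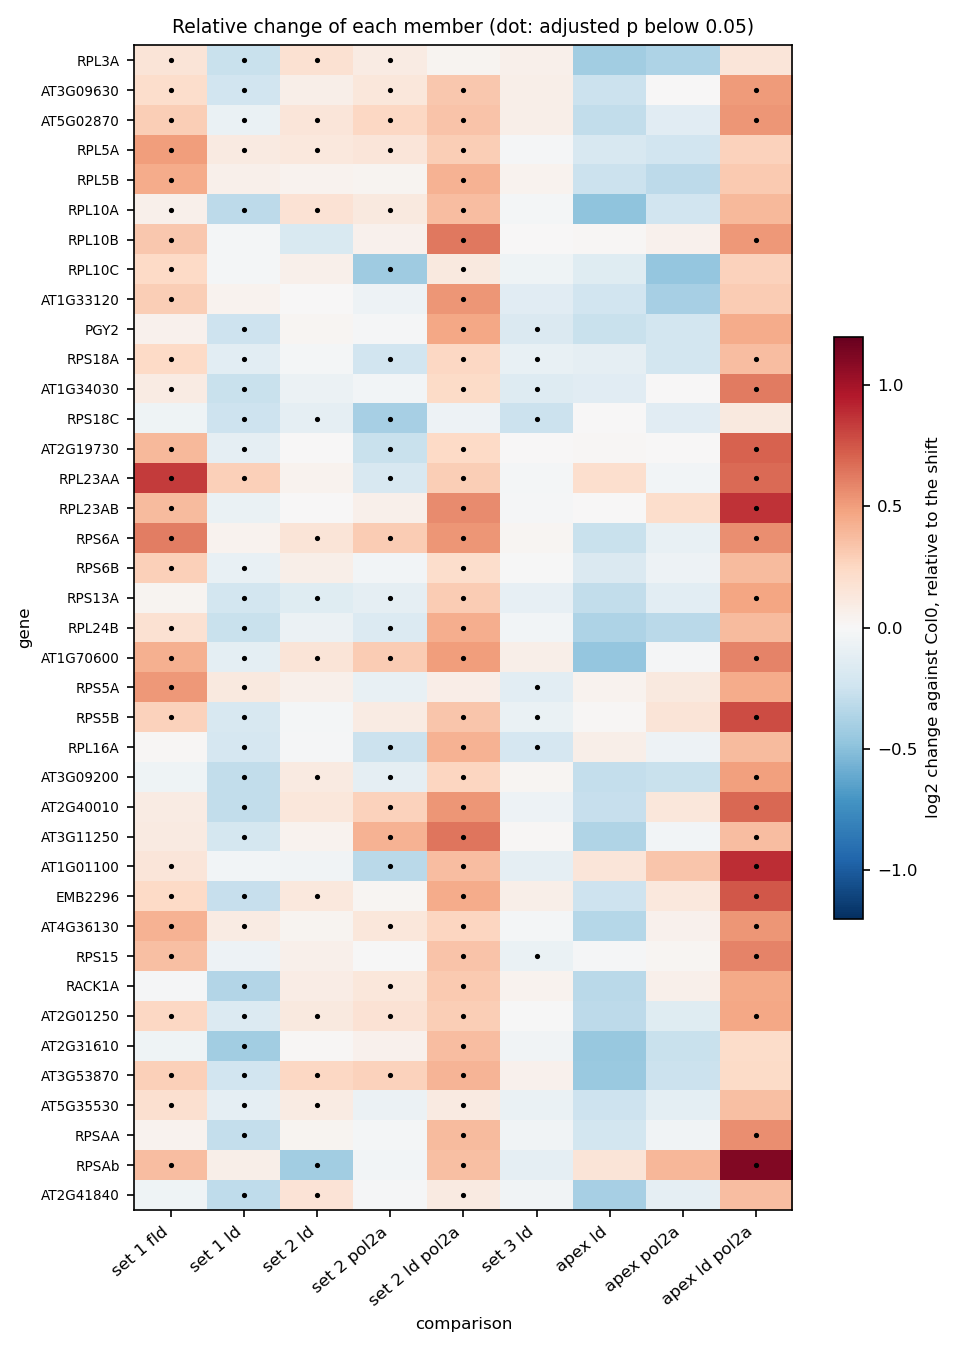
Relative log2 change against Col0 (colour scale) of each of the 39 genes (rows) in the 9 comparisons (columns), with a dot where the adjusted p is below 0.05. Most rows are red in fld of set 1 and in both ld pol2a columns and blue in ld of set 1 and of apices, where no cell of the apex ld column has a dot.

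Counted over the 9 comparisons, which share Col0 libraries within a table, 7 members were called lower in none: RPL5A and RPS6A (called higher in 5 each), the L8 gene AT4G36130 (5), RPL10B and RPL23AB (3 each), RPL5B and AT1G33120 (2 each). RPS18C alone was called higher in none, and lower in 4. Of the members not named elsewhere, the L7 gene AT2G01250 was called higher in 5 and lower in 1, with relative log2 changes from -0.31 to 0.46. The S3 gene AT5G35530 and RPS15, at the decoding side of the small subunit, were called higher in 3 and lower in 1 each. The L28 gene AT2G19730 and RPS5B were called higher in 3 and lower in 2 each. Calls over the 9 comparisons were not counted for all genes, so these counts say nothing particular about the members.

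In pol2a seedlings the members spread to both sides, with 13 called higher and 10 lower, against 30% and 29.8% of all genes. Their median was close to 0, and 33 lay inside the middle 50% of all genes. The SD over the 39 genes was 0.20 against 0.65 over all genes tested. Scaled by library totals, 7 were called higher and 17 lower, with 11916 of 19444 genes called either way. AT3G11250, a minor P0 gene, had a rescaled signal of 570.4, 514 and 500.2 in Col0 and 700.2, 689.8 and 726 in pol2a, all above Col0, a change of 0.42 (SE 0.055, limma adjusted p = 1.59e-06). AT1G70600, for the large-subunit protein L27a, changed by 0.31 (SE 0.038, limma adjusted p = 6.49e-07) and RPS6A by 0.30 (SE 0.034, limma adjusted p = 1.73e-07). RPL10C, a paralog of RPL10A also known as senescence associated gene 24, fell furthest. Its rescaled signal was 3990.4, 4375 and 4304 in Col0 and 3204, 3161 and 3074 in pol2a, without overlap, a change of -0.42 (SE 0.042, limma adjusted p = 2.6e-08). RPS18C changed by -0.40 (SE 0.036, limma adjusted p = 7.86e-09) and AT1G01100, for the stalk protein P1, by -0.33 (SE 0.056, limma adjusted p = 4.35e-05). In pol2a the summed root markers, nearly all PYK10 in Col0, stood at 5950 to 6214 RPM against 4445 to 4591 in Col0. Summed leaf photosynthesis markers stood at 33364 to 34712 against 25483 to 26720. Relative to the shift, 2 of 5 root markers were called higher and 2 lower, and 4 of 6 leaf markers higher and 1 lower. The part of these markers in the result was not tested.

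The ld pol2a seedlings of set 2 gave the highest member count of the series on this scale. Of the 39, 36 were called higher and 0 lower, against 29.2% and 28.3% of all genes. The median log2 change was 0.34 over members and 0.0054 over all genes, and 27 members lay above the upper quartile of all genes. AT3G11250 again led, with a rescaled signal of 570.4, 514 and 500.2 in Col0 and 832, 827 and 811 in ld pol2a, which do not overlap, and a change of 0.64 (SE 0.055, limma adjusted p = 4.61e-09). RPL10B, the least expressed RPL10 gene, stood at 289, 289.5 and 300.1 in Col0 and 459, 458 and 448 in ld pol2a and changed by 0.63 (SE 0.075, limma adjusted p = 4.07e-07). RPL23AB changed by 0.57 (SE 0.046, limma adjusted p = 1.64e-09). The 3 genes without a call were RPS5A (0.084), RPL3A (0.034) and RPS18C (-0.061), and in each of these the groups overlapped on the rescaled scale. Dividing-cell markers stood at 128 to 133 RPM, above the 82.3 to 85 of Col0, and leaf photosynthesis markers at 37202 to 38688, above the 25483 to 26720 of Col0. Their part in the result was not tested.

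In apices, ld gave lower member values that did not pass the test. Counts of 0 higher and 0 lower by edgeR stood beside 0.38% and 0.588% of all genes. DESeq2 called 3 members lower and 815 genes in all. At an unadjusted edgeR p below 0.05, 10 members were lower and 0 higher, a count not taken over all genes. The median was -0.25, against 0.022 over all genes, and 24 of 39 lay below the lower quartile of all genes. The result rests on library 3. The members' median deviation from the Col0 mean was -0.38, -0.33 and -0.0074 in ld libraries 1, 2 and 3, and without ld library 3, 13 members were called lower, while 2524 genes in all were called instead of 181. Leaf photosynthesis markers stood at 59707 and 63684 RPM in ld libraries 1 and 2 and at 87969 in library 3, and their part in the result was not tested. With the replicate number as a block, 524 genes and 0 members were called. RPL10A stood at 1049, 937 and 848 in Col0 and 622, 653 and 748 in ld CPM, with a difference of -0.49 (SE 0.16, edgeR adjusted p = 0.132). AT1G70600 (-0.47) and AT2G31610 (-0.46) were the next lowest. RPL23AA (0.20), RPSAb (0.15) and AT1G01100 (0.15) were the highest, none with a call.

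The pol2a apices gave 0 calls higher and 0 lower by edgeR, against 3.7% and 2.33% of all genes, with a member median of -0.057. DESeq2 called 1 member, the L9 gene AT1G33120, lower and 1515 genes in all. At an unadjusted edgeR p below 0.05, 5 members were lower and 0 higher, a count not taken over all genes. RPL10C, lowest here as in pol2a seedlings, stood at 303, 290.4 and 316 in Col0 and 263, 199 and 196 in pol2a CPM, a difference of -0.47 (SE 0.16, edgeR adjusted p = 0.114). AT1G33120 (-0.40) and RPL3A (-0.37) followed. The highest values were those of RPSAb (0.39), AT1G01100 (0.34) and RPL23AB (0.22). None of these passed the test. Summed root markers, nearly all PYK10 in Col0, stood at 1006 to 1179 RPM in pol2a and 606 to 654 in Col0. Of the 3 root markers tested 1 was called higher and 0 lower. Of 9 dividing-cell markers 5 were called higher and 0 lower, and of 4 shoot meristem markers 2 higher and 0 lower. None of 6 leaf photosynthesis markers was called. Summed dividing-cell markers stood at 405 to 487 RPM in pol2a and 337 to 410 in Col0, which overlap. The part of these markers in the result was not tested.

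The ld pol2a apices had the highest member values of the apex set. By edgeR 22 of 39 were called higher and 0 lower, against 14.8% and 10.9% of all genes, and all 39 had a positive log2 change. The median was 0.46 over members and 0.0021 over all genes, and 31 members lay above the upper quartile of all genes. The SD over the 39 genes was 0.21 against 0.65 over all genes tested. RPSAb stood at 3.33, 5.38 and 5.66 in Col0 and 8.21, 10.3 and 12.7 in ld pol2a CPM, without overlap, a change of 1.11 (SE 0.27, edgeR adjusted p = 0.0106) that was not called without ld pol2a library 3 (0.92, edgeR adjusted p = 0.0587). The P1 gene AT1G01100 stood at 308, 279.7 and 322 in Col0 and 489, 572 and 617 in ld pol2a CPM, again apart from Col0, a change of 0.88 (SE 0.17, edgeR adjusted p = 0.00279). RPL23AB changed by 0.87 (SE 0.12, edgeR adjusted p = 0.000389). At the lower end, AT2G31610 (0.22), RPL3A (0.15) and RPS18C (0.12) did not pass the test. RPS18C and RPL3A were also without a call in the double mutant seedlings. All 22 genes called higher in apices were called higher in ld pol2a seedlings too, where 36 of 39 were called. Of all genes tested in both tables, 9.68% were called higher in both. The count of 22 members fell to 12 without Col0 library 2, to 11 without ld pol2a library 2 and to 10 without ld pol2a library 3. All genes called then numbered 3397, 2809 and 2727, against 4807 with all libraries. The members' median minus that of all genes was 0.46, and ran from 0.39 to 0.55 without 1 library. The member count rose to 30 when Col0 and ld pol2a were fitted alone. PYK10, a root-body gene that carries nearly all of the root marker sum, moved with this group: the sum was 606 to 654 RPM in Col0 and 1530.0 to 1680.1 in ld pol2a, while EXPA7, PLT1, RSH3 and SHV2 were at or near 0 in Col0 apices. Dividing-cell markers stood at 337 to 410.1 and 418 to 477. Leaf photosynthesis markers were lower in ld pol2a (57277 to 60976 RPM against 69798 to 83539). The sum of shoot meristem markers, mostly CLV1 in Col0 apices (89.4 RPM), was also lower (68.7 to 84.3 against 93.9 to 103). By edgeR, however, 3 of the 4 shoot meristem markers tested were called higher and 1 lower. Their part in the result was not tested.

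The share of each library held by the 39 genes needs no scale factor. Col0 of set 1 held 1.09% to 1.12%, against 1.40% to 1.41% for fld and 1.07% to 1.08% for ld. In set 2 it was 0.935% to 0.974% in Col0, 0.904% to 0.943% in ld, 0.898% to 0.915% in pol2a and 1.10% to 1.15% in ld pol2a. Libraries of fld and of ld pol2a lay above every Col0 library of their set, and those of ld in set 1 and in apices and of pol2a in set 2 lay below. In pol2a of set 2, and in ld of set 2 by its mean (0.926% against 0.957% in Col0), the share was lower than in Col0 although more members were called higher than lower relative to the shift. In set 3 Col0 (1.13% to 1.19%) and ld (1.13% to 1.18%) overlapped. Apices held more, with 1.54% to 1.76% in Col0, 1.49% to 1.52% in ld, 1.41% to 1.71% in pol2a and 2.21% to 2.48% in ld pol2a. The ld pol2a apices stood above all other libraries of the series. Totals were summed over 33562 genes for apices and 28775 for seedlings, so seedling and apex shares compare only roughly.

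**Figure D3:**
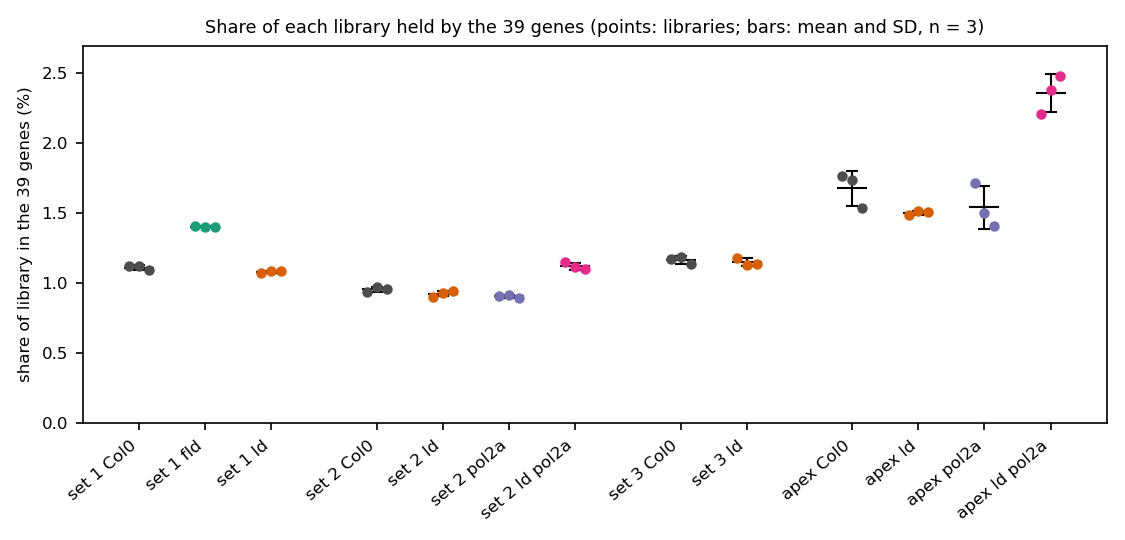
Percent of each library's total held by the 39 genes (vertical axis from 0) in the 13 groups; points are libraries and bars the mean with its SD (n = 3). The ld pol2a apices sit highest, at 2.21% to 2.48%.

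For most members the double mutant differed from the sum of its parents. The interaction, the change in ld pol2a minus those in ld and in pol2a on the log2 scale, was a comparison added after the data were seen. In set 2 it was called positive for 24 members and negative for 2, against 25.3% and 26.2% of all genes. In apices it was called positive for 27 and negative for 0, against 5.13% and 2.41%. The members' median interaction was 0.28 in set 2 and 0.82 in apices, and the medians of all genes were -0.0034 and -0.031. RPSAb had an interaction of 0.81 (SE 0.16, limma adjusted p = 0.000226) in set 2, with changes of -0.41 in ld, -0.032 in pol2a and 0.36 in ld pol2a. RPL10B (0.77) and AT1G01100 (0.74) followed. The 2 negative calls were RPL3A, at -0.25 (SE 0.047, limma adjusted p = 0.000126), and AT3G53870, at -0.12 (SE 0.046, limma adjusted p = 0.0388). In apices RPL10A led with 1.10 (SE 0.22, edgeR adjusted p = 0.0121), from -0.49 in ld and -0.23 in pol2a to 0.39 in ld pol2a. AT1G70600 (1.08) and RPL24B (1.07) were next. The apex count moved with single libraries. It was 8 without Col0 library 1, 9 without Col0 library 2, 14 without ld library 1 and 8 without ld library 2. Further counts were 36 without ld library 3, 5 without pol2a library 2, 9 without pol2a library 3, and 6 without ld pol2a library 2 or 3. In the fits with 5 to 14 members, 494 to 889 genes were called in all, against 1410 with all libraries. The members' median interaction minus that of all genes was 0.85, and ran from 0.78 to 0.94 without 1 library. In set 2 the count ran from 23 to 27.

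**Figure D4:**
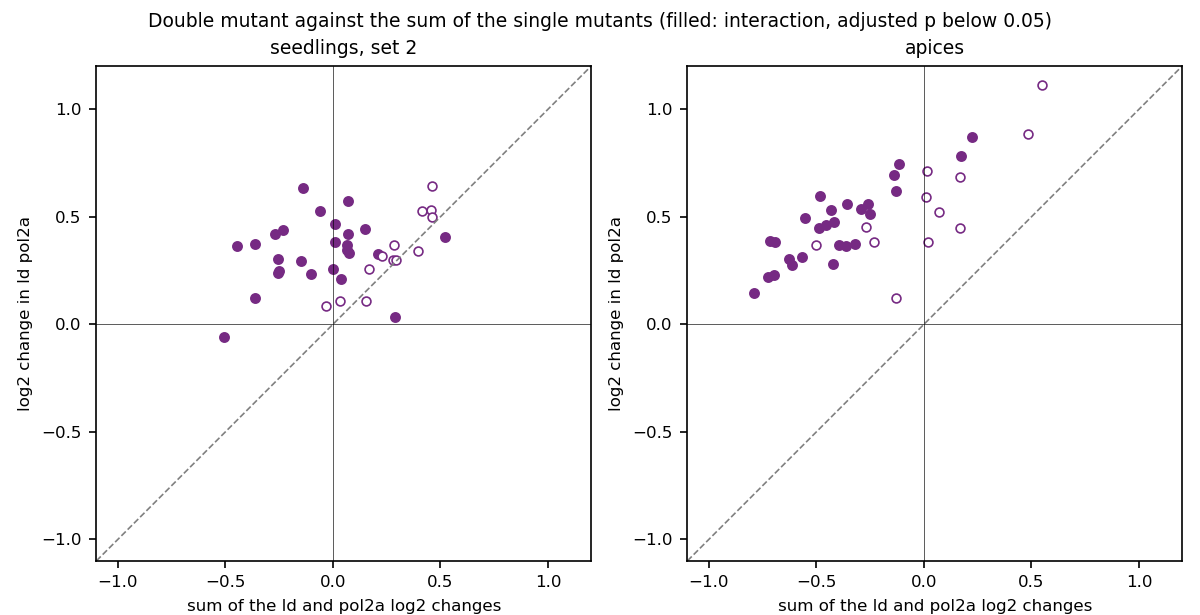
Log2 change of each member in ld pol2a (vertical axis) against the sum of its changes in ld and pol2a (horizontal axis), relative to the shift, in set 2 seedlings and in apices. Points above the dashed line of equality have a positive interaction, and filled points have an adjusted p below 0.05, which holds for 26 of 39 in set 2 and 27 of 39 in apices.

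Paralogs were followed by their log2 ratio within each library, taken after 1 was added to each value. Such a ratio hardly depends on the scale factor, except where a gene is near the floor. A pair was said to part where the ratios of the groups did not overlap and their means differed by at least 0.3. Of 20 pairs, 4 parted in fld and 4 in ld of set 1, where 27.4% and 22% of all listed pairs of cytosolic ribosomal protein genes did. In set 2 the counts were 2 in ld (9.52% of listed pairs), 7 in pol2a (34.9%) and 4 in ld pol2a (25.9%). None parted in ld of set 3 (4.15%). In apices 1 parted in ld (11.2%), 2 in pol2a (18.1%) and 4 in ld pol2a (29.3%). These shares of 20 lie near those of the listed pairs, and 3 against 3 libraries cannot give an exact permutation p below 0.1, so the pairs below are described and not tested. The thresholds of 0.2 and 0.5 give other counts. Pairs that parted in no comparison were RPL5A with RPL5B, AT3G09630 with AT5G02870 of the RPL4 family, RPS18A with AT1G34030, and AT1G33120 with PGY2. Of these, AT1G33120 and PGY2 cannot be told apart well: 53.7% and 58.0% of their 50-base stretches occur elsewhere in the genome, and 72 of their exon bases overlap a gene on the other strand.

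RPSAA and RPSAb, whose promoters are shown above, parted in fld of set 1, in ld of set 2 and in ld pol2a apices. RPSAA carries nearly all of the family, with RPSAb at 1.58% of the summed per-length level in Col0 of set 1 and 0.631% in Col0 apices. Their log2 ratio was 5.54, 5.66 and 5.67 in Col0 and 6.01, 6.23 and 5.99 in ld of set 2, a difference of 0.45 (SE 0.085), with RPSAb low in ld. In fld the difference was -0.31 (SE 0.10) and in ld pol2a apices -0.43 (SE 0.26), both toward RPSAb. RPSAb was low in Col0 apices (3.16 RPM per kilobase), so the added 1 shrinks the apex difference. By edgeR the changes there were 0.56 for RPSAA and 1.11 for RPSAb. RPL10B and RPL10C parted in pol2a (0.47 (SE 0.072)) and ld pol2a seedlings (0.51 (SE 0.041)) and in pol2a apices (0.53 (SE 0.14)). In pol2a seedlings the ratio was -3.78, -3.91 and -3.84 in Col0 and -3.31, -3.31 and -3.49 in pol2a, and all 3 differences were toward RPL10B. RPL10B held 2.75% of the family in Col0 of set 2, RPL10C 36.0% and RPL10A 61.2%. RPL10A and RPL10B parted in ld of set 2 (0.36 (SE 0.050)) and, with the opposite sign, in ld apices (-0.50 (SE 0.077)). In ld of sets 1 and 3 the difference was -0.29 and -0.026, under the threshold of 0.3. In apices the ratio was 5.66, 5.63 and 5.44 in Col0 and 5.01, 5.11 and 5.12 in ld, and the groups did not overlap.

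RPS6A and RPS6B, both substrates downstream of TOR, parted in fld (0.33 (SE 0.040)), pol2a (0.34 (SE 0.053)) and ld pol2a (0.32 (SE 0.057)) seedlings, each time toward RPS6A. In pol2a the ratio was -0.72, -0.64 and -0.70 in Col0 and -0.26, -0.36 and -0.43 in pol2a. RPS6B was the larger of the pair in Col0 seedlings and RPS6A held 42.7% of the per-length sum in set 1, but 54.4% in Col0 apices. RPL23AA and RPL23AB parted in fld (0.46 (SE 0.041)) and ld (0.37 (SE 0.038)) of set 1, toward RPL23AA. Their ratio was 0.91, 1.00 and 1.02 in Col0 and 1.39, 1.47 and 1.45 in fld, with all fld libraries above Col0. AT1G34030 and RPS18C parted in pol2a seedlings (0.36 (SE 0.050)) and ld pol2a apices (0.49 (SE 0.078)), with RPS18C low both times. RPS18C held 46.3% of the RPS18 family in Col0 of set 1.

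**Figure D5:**
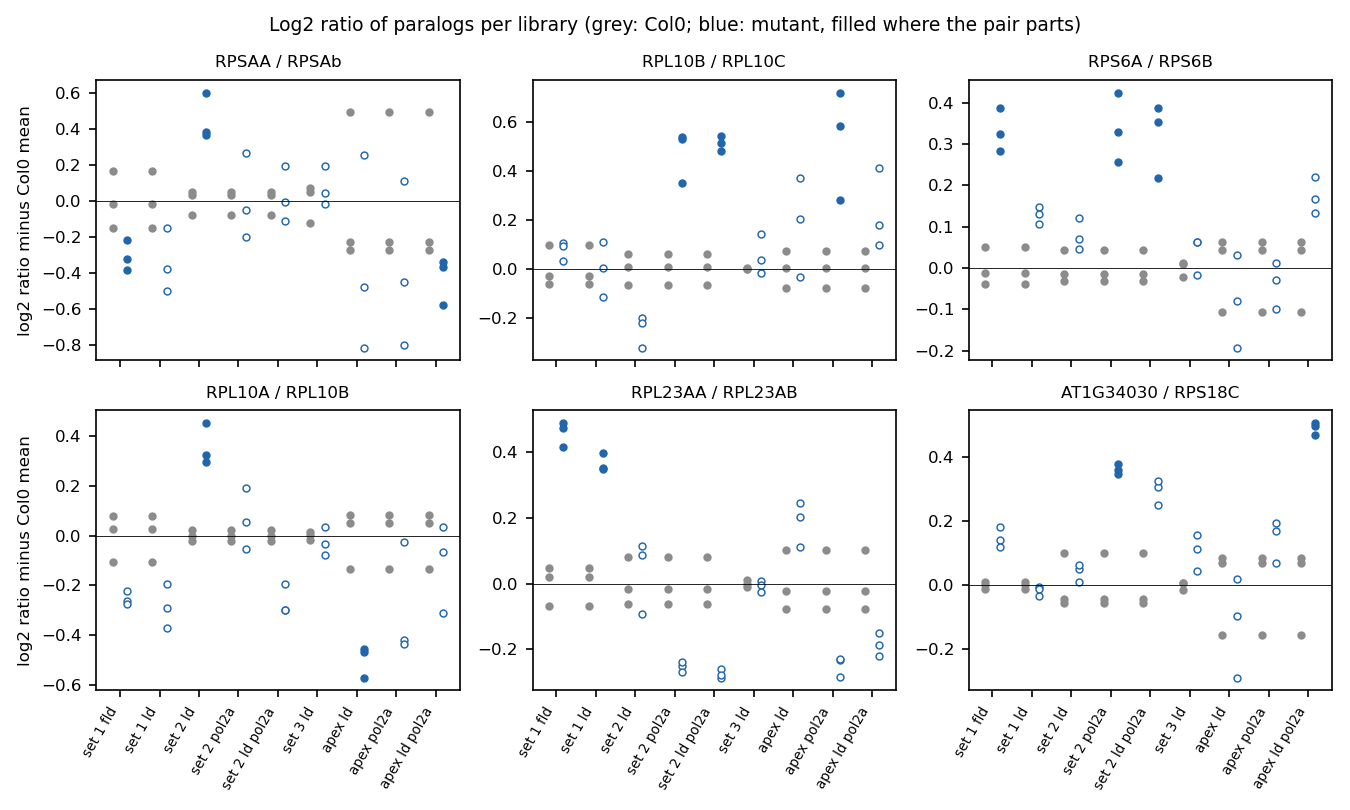
Log2 ratio of 6 pairs of paralogs minus its Col0 mean (vertical axis), per library, in the 9 comparisons; grey points are Col0, blue points the mutant, filled where the pair parts. RPL10A / RPL10B lies above Col0 in ld of set 2 and below it in ld of apices.

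Because ld was measured in 3 seedling sets that share no library, its paralog ratios could be tested over 9 Col0 and 9 ld libraries, with labels permuted within each set. Col0 libraries 1 and 2 of set 3, which may not be separate samples, counted as 2 here, so the p-values may be too small. In 9 of 20 pairs the exact two-sided permutation p, unadjusted, was below 0.05, against 54.3% of 186 listed pairs of cytosolic ribosomal protein genes, so the count says nothing particular about these 20. The difference had 1 sign in all 3 sets in 4 of the 20 and in 43% of the listed pairs. The count ran from 7 to 9 pairs when any 1 library was left out, but of the 9 pairs only 3 still passed without set 1, 5 without set 2 and 7 without set 3. RPL23AA against RPL23AB, for example, went from 0.13 to 0.015 without set 1. The 3 pairs that passed without any 1 set are described next. The RPS3 genes AT2G31610 and AT3G53870 differed most clearly. The ratio was 0.21, 0.29 and 0.21 in Col0 and 0.024, 0.047 and 0.080 in ld in set 1, -0.14, -0.052 and -0.059 in Col0 and -0.40, -0.31 and -0.25 in ld in set 2 and -0.36, -0.33 and -0.32 in Col0 and -0.48, -0.42 and -0.41 in ld in set 3, so every ld library lay below every Col0 library of its set. The mean difference was -0.17 (exact permutation p = 0.00025, the smallest these permutations can give), from -0.18, -0.24 and -0.099 in sets 1, 2 and 3. In apices the same ratio differed by -0.014 (SE 0.031), with overlapping groups. RPS18A against RPS18C differed by 0.13 (exact permutation p = 0.001) and RPS6A against RPS6B by 0.082 (exact permutation p = 0.00175), each positive in all 3 sets. Neither parted in ld by the rule above in a single set, since each difference is under 0.3. Of the other pairs, RPL10A against RPL10B (0.015, exact permutation p = 0.844) and RPSAA against RPSAb (0.061, exact permutation p = 0.564) did not pass, and in both the set 1 difference was negative and the set 2 difference positive.

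RACK1A, the scaffold at the head of the small subunit, is annotated as a WD40 repeat protein. Its relative log2 change was -0.014 in fld, a sign that turned under TMM scaling, under library totals and by edgeR on recovered reads, where the members' median was 0.24, and -0.35 (SE 0.024, limma adjusted p = 8.54e-11) in ld of set 1. In set 2 it was 0.091 in ld, 0.14 (SE 0.048, limma adjusted p = 0.0175) in pol2a and 0.32 (SE 0.048, limma adjusted p = 9.88e-06) in ld pol2a, and in set 3 ld 0.039. The pol2a call ended without Col0 library 1 (limma adjusted p = 0.109), without pol2a library 2 (0.0766) and under library totals (0.347). In apices it was -0.33 in ld, 0.057 in pol2a and 0.45 in ld pol2a, none of them called by edgeR with all libraries. The ld pol2a value was called by DESeq2 (0.44, adjusted p = 0.0445) and by edgeR with Col0 and ld pol2a alone (0.42, adjusted p = 0.0161), and the ld value was called by edgeR without ld library 3 (-0.51, adjusted p = 0.0406). It held 80.0% of the per-length level of the 3 RACK1 genes in Col0 of set 1 and 80.0% in Col0 apices.

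Other genes of the translation machinery, taken from hand-written lists, were read on the same relative scale. Of the other cytosolic ribosomal protein genes, 152 of 170 were higher and 6 lower in fld and 165 of 171 were higher and 1 lower in ld pol2a seedlings, against 29.6% and 29.2% of all genes higher. In ld pol2a apices 106 of 170 were higher and 0 lower, against 14.8%. In ld 29 of 170 were higher and 74 lower in set 1 (25.6% and 27.5% of all genes), 36 of 171 were higher and 21 lower in set 2 (18.6% and 15.9%) and 10 of 173 were higher and 55 lower in set 3 (19.2% and 19.3%). The 39 members, of the same gene class, had 28, 36 and 22 higher in the first 3 of these groups. AT3G28500, an acidic stalk protein gene, was picked after its values were seen, as the largest change in its list, so no p-value is given. It stood at 0.693 ± 0.25 CPM in Col0 apices, near the floor, and 18.4 ± 3.7 in ld pol2a apices (SD, n = 3). Its log2 change was 4.72 (SE 0.30), and it was also higher in ld pol2a seedlings. Plastid ribosomal protein genes, which serve the chloroplast's own ribosomes, numbered 26. In ld pol2a 21 were higher and 2 lower in seedlings but 0 were higher and 8 lower in apices. In ld 3 were higher and 18 lower in set 1, 20 higher and 0 lower in set 2, and 0 higher and 12 lower in set 3. In fld 7 were higher and 11 lower. Among translation factors, 16 of 23 were higher and 1 lower in ld pol2a seedlings and 12 of 23 were higher and 1 lower in ld pol2a apices, but 1 was higher and 15 lower in ld of set 1. Among ribosome biogenesis genes, 16 of 23 were higher and 4 lower and 16 of 22 were higher and 0 lower in the same groups, and 15 of 23 were higher and 1 lower in pol2a seedlings. Of 7 genes of TOR signalling and ribosomal stress, 0 were higher and 5 lower in ld pol2a seedlings, where 28.3% of all genes were lower. In the other seedling groups 2 were higher and 4 lower in fld, 2 and 2 in ld of set 1, 1 and 0 in ld of set 2, 1 and 2 in pol2a and 2 and 0 in ld of set 3, and none was called in apices.

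Some values are uncertain for reasons of sequence. Besides AT1G33120 and PGY2, stretches of 50 bases found elsewhere in the genome made up 9.7% of RPL16A, 6.15% of RPL5B and 5.24% of RPL10C, and 24 of the 39 genes had none. Exon bases overlapping a gene on the other strand numbered 826 of 1477 in the P0 gene AT2G40010 and 295 of 1235 in the L8 gene AT4G36130. No source used here says whether reads were counted by strand, so reads of these genes and their antisense partners cannot be told apart. Overlap with another gene on the same strand, which no strand setting resolves, covered 132 of 1474 exon bases in RPSAb and 100 of 1460 in AT3G09200. Across the 39 genes, the Spearman correlation of relative change with Col0 level ran from -0.52 (ld apices) to 0.48 (ld of set 3), a description over genes that share their libraries.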

How the data were processed

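Seedling values, as deposited by the authors, are signal. Values of a library were all multiples of its own smallest step (within 0.1 reads), as counts over 1 size factor would be. In sets 1 and 2 a direction of replicate spread is nearly absent, so the whole numbers recovered there may not be raw reads. Apex values are raw read counts, as deposited by the authors. Per the submitters' processing notes, the tools were Trimmomatic (0.38) and HISAT2, then SAMtools (1.9), featureCounts, deepTools and DESeq2, on TAIR10. No source used here gives the origin of the size factors, the spike-in or the strand setting. The design text names fewer spike-in datasets than the labels, which give 3.

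Each seedling set was fitted with limma 3.58.1 (R 4.3.3) to log2(signal + 1) with a trended variance, keeping genes whose mean was at least 10, on the deposited scale and after median-of-ratios rescaling (relative to the shift). Log2 changes are on that scale, which understates low genes. Apex counts were tested with edgeR 4.0.16 quasi-likelihood (robust) after TMM scaling and filterByExpr, with levels in TMM-scaled CPM. All groups of a table entered its fit, and p-values were adjusted by Benjamini-Hochberg over all genes tested, with a threshold of 0.05. All 39 members passed the filters. DESeq2 1.42.0 was an alternative, and the fits were tested on simulated data.

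Replicate numbers were checked by correlating deviations from group means. Libraries with the same number correlated at 0.37 to 0.70 for apex ld and Col0 and at 0.34 to 0.63 for apex pol2a and Col0, so there the numbers were taken to pair libraries. The main apex fit left this pairing out, and counts with the replicate number as a block are given as an alternative. In the other comparisons at least 1 of 3 correlations was below 0.1.

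Named genes were, for each comparison, the 3 highest and 3 lowest relative changes, the 6 pairs of paralogs that parted most often, and RACK1A. Other members are given by counts and range or were named to account for them. The members, gene lists and tests were chosen with earlier results of these data known. Annotation and promoters come from RefSeq, TAIR10.1, matched by locus identifier (28009 of 28775 seedling and 32820 of 33562 apex identifiers). Protein sequences were not used here. The split within 1 family of paralogs is not reported here.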

Additional observations from a re-analysis of the deposited data

Results flagged for a closer look

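The log2 ratio of RPL10A to RPL10B differed from Col0 by 0.36 in ld seedlings of set 2 and by -0.50 in ld apices, with no overlap between groups in either table. In ld seedlings of set 1 it differed by -0.29, the sign seen in apices, and in set 3 by -0.026, so the seedling sets also differ. The difference between the tables, which differ in tissue, extraction and scaling, was not tested.

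In 9 members (RPL3A, AT3G09630, RPL10A, AT1G70600, AT3G09200, EMB2296, AT2G01250, AT3G53870 and AT2G41840) the ld libraries of set 1 and those of set 2 lay wholly apart from Col0 in opposite directions on the rescaled scale, as did 15.2% of all genes tested in both sets. The difference between the sets was not tested.

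The change in ld pol2a exceeded the sum of those in ld and pol2a in 24 of 39 members in set 2 seedlings (limma). The share of all genes there was 25.3%. In apices (edgeR) it did so in 27 of 39, against 5.13% of all genes. This test of the interaction was added after the data were seen, and the apex count ran from 5 to 36 without 1 library. Where it was 5, 527 genes in all were called, against 1410 with all libraries.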

How the results depend on the processing

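Of 500 alternative values of counts, medians and shares, 454 stayed within the replicate SD or 1.5 times of the value reported, and of 1051 alternative values of single genes and pairs, 993 kept their direction and their side of the threshold. The cause of the changes below was not tested. DESeq2 called 3 members in apex ld and 1 in apex pol2a, where edgeR called 0. Over all genes it called 815 and 1515. Scaling by library totals moved the median of all genes by 0.14 in set 1 fld, 0.12 in set 1 ld and -0.11 in set 2 ld. Under it 13 members were called in set 2 ld, 24 in set 2 pol2a and 13 in set 3 ld, the first pair mostly lower instead of higher. The log2 change became 0.068 for AT3G09200, 0.075 for AT2G31610, 0.076 for AT2G41840 and 0.11 for RACK1A in set 1 fld, -0.047 for RPL3A in set 2 ld pol2a and -0.029 for RACK1A in set 2 ld. RACK1A in set 1 fld was 0.0064 under TMM scaling and 0.0037 by edgeR on recovered reads. That test called 11178 genes and 30 members in set 1 fld, 9816 and 31 in set 1 ld, and 11834 and 36 in set 2 ld pol2a, on whole numbers that may not be raw reads in sets 1 and 2. With Col0 libraries 1 and 2 of set 3 averaged, 5 members and 6216 genes in all were called there, against 8079 genes with n = 3.

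At a ratio difference of at least 0.2, 9 pairs parted in set 1 fld, 7 in set 1 ld, 4 in set 2 ld, 12 in set 2 ld pol2a, 5 in apex pol2a and 8 in apex ld pol2a. At 0.5, 2 parted in set 2 pol2a, 1 each in set 2 ld pol2a and apex pol2a, and 0 in set 1 fld, set 1 ld, set 2 ld, apex ld and apex ld pol2a. With a pseudocount of 5, 2 parted in apex ld pol2a.

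Leaving out 1 library gave 5 to 36 members with an interaction in apices, 10 to 21 called in apex ld pol2a, 0 to 13 in apex ld and 5 to 12 in set 3 ld. At the count of 5 in apices 527 genes in all had an interaction, against 1410 with all libraries. At the count of 10 in apex ld pol2a 2727 genes were called, against 4807. The members' median relative change ran from -0.17 to 0.019 in apex pol2a, 0.19 to 0.24 in set 1 fld, 0.032 to 0.066 in set 2 ld and -0.0093 to 0.015 in set 2 pol2a. Pairs that parted numbered 3 to 7 in set 1 ld, 2 to 6 in set 2 ld pol2a, 1 to 2 in apex ld, 2 to 4 in apex pol2a and 2 to 5 in apex ld pol2a. Single genes that changed sign were RPSAb (-0.081 to 0.35) and AT1G01100 (-0.059 to 0.24) in apex ld and RACK1A in apex pol2a (-0.086 to 0.16) and in set 3 ld (-0.0078 to 0.074).

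With the replicate number as a block, 12 members were called in set 3 ld, 23 in apex ld pol2a and 0 in apex ld and in apex pol2a, and the block changed no count of members by over 1.5 times. It raised the genes called in apex ld from 181 to 524. Depth limits the members little, since the lowest member mean over the 12 apex libraries was 100.7 counts.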
